A study of Mus musculus with 5 samples.

Results

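The genes described here are the 35 genes of pyruvate oxidation, the tricarboxylic acid (TCA) cycle and the reactions that feed or drain the cycle, of 35478 genes listed in each mouse. They were taken by gene name, and all 35 had enough counts to be tested. They were read in kidneys of Prdm16fl/fl UIRI mice, which carry floxed Prdm16 alleles without Cre (n = 2, numbered 1 and 3, fl/fl mice below), and of Ksp-Cre/Prdm16fl/fl UIRI mice, which carry the same alleles with Cre under the promoter of cadherin 16 (n = 3, numbered 1, 2 and 3, Ksp-Cre mice below). The mice were males of 7 to 8 weeks, labelled as strain C57BL/6J;129, whereas the sample titles name C57BL/6J. UIRI stands for unilateral ischemia-reperfusion injury, and every mouse had its left renal pedicle clamped for 35 min at a bath temperature of 38.5°C. The right kidney was removed at day 10 and the mice were killed 24 h later, at day 11. Uninjured kidneys were not analysed here, so the values compare genotypes within injured kidneys only. The Ksp promoter drives Cre in tubular epithelium, and the floxed segment lies within the gene. The rest of the Prdm16 transcript can therefore still be counted, as can Prdm16 of cells without Cre. Libraries were made from whole cortex, as the study's methods state.

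Pyruvate made by glycolysis or from lactate is carried into the mitochondrion and is either oxidized to acetyl-CoA by the pyruvate dehydrogenase complex or carboxylated to oxaloacetate. The TCA cycle then oxidizes acetyl-CoA and passes electrons to the respiratory chain. Proximal tubule cells depend on mitochondrial oxidation for solute transport, and they also use the cycle for gluconeogenesis and for ammonia formation from glutamine. Prdm16 is a zinc finger transcriptional regulator best known for the oxidative program of brown fat.

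The libraries held 15215871 (fl/fl mouse 1), 14939040 (fl/fl mouse 3), 16425161 (Ksp-Cre mouse 1), 16111708 (Ksp-Cre mouse 2) and 15470435 (Ksp-Cre mouse 3) counts. The lowest count of any of the 35 genes in any mouse was 173, for Pdp1, so none was limited by depth. Levels between mice are given as CPM, counts per 1000000 after TMM scaling, and levels between genes as TPM, which are also divided by gene length. Values are listed below in the order of the mice above. Ksp-Cre mouse 3 stood apart from the other libraries. On the first principal component, which held 56.4% of the variance, it lay at 72.2 whereas the other 4 lay between -36.2 and -1.92. Its correlation with the others across genes was 0.943 to 0.960, against 0.970 to 0.991 among the others. Without it more genes passed the test, as given beside the results.

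Prdm16 itself had 25.3 and 20.0 CPM in the fl/fl mice and 17.1, 17.0 and 18.0 CPM in the Ksp-Cre mice. The groups did not overlap, but the log2 difference of -0.38 (SE 0.155) did not pass the test (edgeR adjusted p = 0.259). Gene counts do not separate the floxed exon from the others.

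The cycle genes had lower levels in the Ksp-Cre mice at nearly every step, most by a modest amount. The fitted log2 fold change was below 0 for 31 of 35 genes, against 46.0% of the 16394 genes tested. Its median was -0.47, against 0.038 over all genes tested, and the quartiles of all genes tested lay at -0.24 and 0.27. The median of the 35 genes relative to the fl/fl mean was -0.47, -0.47 and -0.48 in Ksp-Cre mice 1, 2 and 3, and 0.034 in fl/fl mouse 3. Their summed level was 10734 and 11496 CPM in the fl/fl mice and 7419, 7302 and 8334 CPM in the Ksp-Cre mice, which is 66.7%, 65.7% and 75% of the fl/fl mean. Together they took 1.05% and 1.07% of all counts in the fl/fl mice and 0.796%, 0.767% and 0.809% in the Ksp-Cre mice. In whole cortex, fewer cells of a type and less RNA of these genes per cell cannot be told apart.

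Only 2 of these genes fell at an adjusted p under 0.05 with edgeR, Pcx and Idh3b, where 0.872% of all genes tested did. For Pcx the log2 fold change was also at or below -1, which was the case for 0.628% of all genes tested. None rose, and 0.104% of all genes tested did, or 0.0793% with a log2 fold change of at least 1. At an unadjusted p under 0.05, 23 of the 35 were lower and 0 were higher, against 11.2% and 7.64% of all genes tested. All 3 Ksp-Cre mice lay below both fl/fl mice for 28 genes and above both for 2, Pdp2 and Acly, against 21.3% and 20.3% of all genes tested. The groups overlapped for the other 5, which were Pdp1, Fh1, Me2, Got1 and Glud1.

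The number that passed depended on the tool and on mouse 3. With DESeq2, 16 of the 35 were lower and 0 were higher at an adjusted p under 0.05, against 5.56% and 1.98% of all genes tested. Without Ksp-Cre mouse 3, edgeR called 24 lower and 0 higher, against 11.0% and 7.82% of all genes tested, and without any other mouse it called 0 of the 35. The median was -0.46 with DESeq2 and -0.46 without Ksp-Cre mouse 3. In TPM the median log2 ratio over all genes was itself 0.28, and that of the 35 genes was -0.24, with 30 lower and 5 higher, Me2 being the gene that turned. All 3 Ksp-Cre mice lay below both fl/fl mice in TPM for 19 of the 35, against 10.3% of all genes, and above both for 3, against 39.6%. Pdha1, Pdhb, Pdhx, Pdk1, Pdk3, Cs, Ogdh, Me3 and Got2 were apart in CPM and overlapped in TPM. For Pdp1 the groups overlapped in CPM, while all 3 Ksp-Cre mice lay above both fl/fl mice in TPM. Overlap is stated below for CPM.

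**Figure D1:**
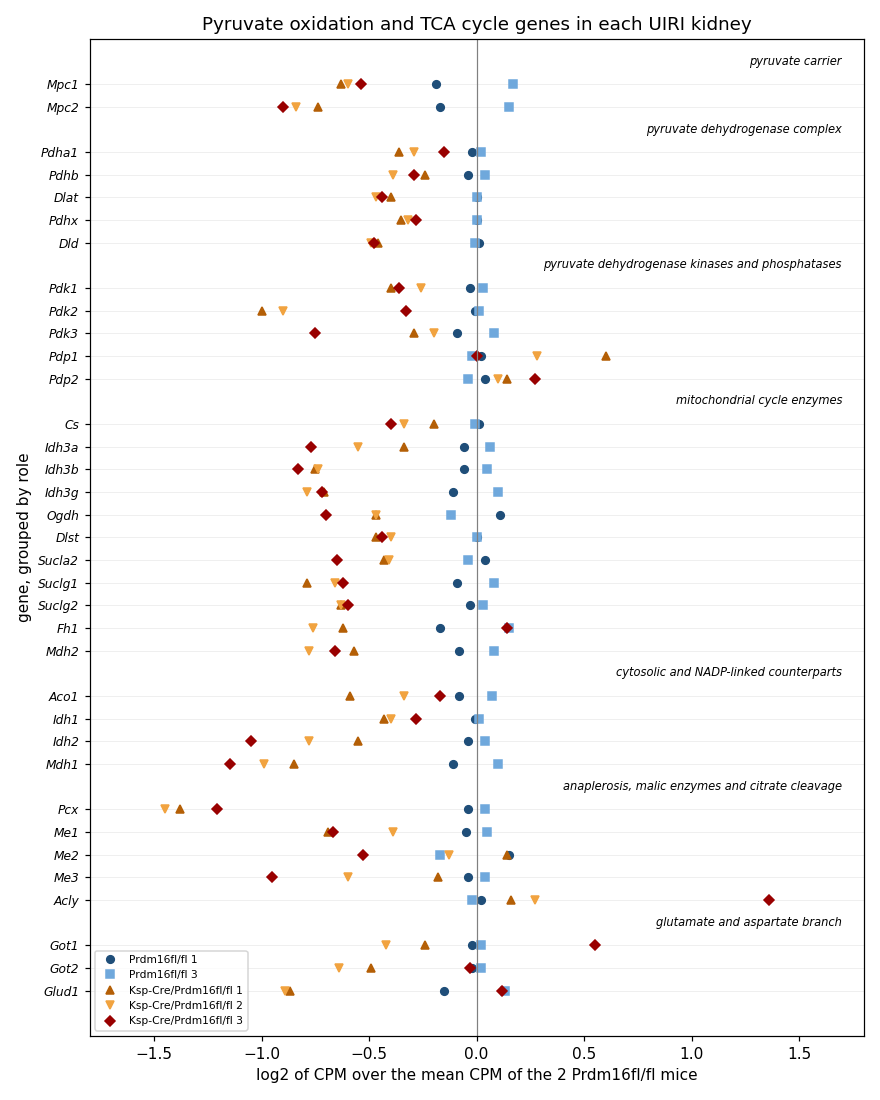
CPM of each of the 35 genes in each mouse, as log2 of the ratio to the mean of the 2 fl/fl mice (x axis), with genes grouped by role (y axis) and 1 point per mouse. In 28 genes all 3 Ksp-Cre points lie left of both fl/fl points, Pcx lies farthest left, and mouse 3 alone lies far right for Acly.

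The mitochondrial pyruvate carrier is a complex of Mpc1 and Mpc2 in the inner membrane and is the route of pyruvate into the matrix. Both genes were lower in all 3 Ksp-Cre mice, and both were called by DESeq2 and by edgeR without mouse 3 but not by edgeR with all mice. Mpc2 had 301 and 376 CPM in the fl/fl mice and 203, 189 and 182 CPM in the Ksp-Cre mice. The difference was -0.82 (SE 0.144) on the log2 scale and did not pass the test (edgeR adjusted p = 0.0583). Mpc2 has the shortest merged exons of the 35 genes (806 bases), and the difference was -0.47 with the gene length trend removed. Mpc1 had 72.5 and 92.8 CPM, against 53.4, 54.5 and 56.9 CPM. Its log2 difference was -0.59 (edgeR adjusted p = 0.101), and 11.3% of its exon bases are shared with a gene on the other strand, 4930506C21Rik. The ratio of Mpc2 to Mpc1 in TPM was 8.56 and 8.36 in the fl/fl mice and 7.83, 7.16 and 6.58 in the Ksp-Cre mice, which lay below both. With the gene length trend removed the difference of Mpc1 was -0.44, close to that of Mpc2.

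The pyruvate dehydrogenase complex joins a decarboxylase (Pdha1 and Pdhb), an acetyltransferase (Dlat), a binding protein (Pdhx) and a dehydrogenase (Dld) that it shares with other ketoacid dehydrogenases. All 5 genes were lower in every Ksp-Cre mouse in CPM, and Dlat and Dld in TPM too, with log2 differences of -0.48 to -0.26, and none passed the edgeR test with all mice. DESeq2 called Dlat and Dld lower, and edgeR without Ksp-Cre mouse 3 called Dlat, Dld and Pdhx. Dld had 337 and 332 CPM in the fl/fl mice and 243, 238 and 240 CPM in the Ksp-Cre mice. Dlat had 167 and 166 CPM, against 127, 120 and 123 CPM. The spread within each genotype was small for both, and their log2 differences were -0.48 (SE 0.113) and -0.44 (SE 0.106). Pdhx had 48.8 and 48.5 CPM, against 38.2, 39.1 and 40.0 CPM. Pdhb had 156 and 164 CPM, against 136, 122 and 131 CPM. Pdha1, on the X chromosome, had 312 and 321 CPM, against 247, 258 and 286 CPM, and shares 20.9% of its exon bases with Map3k15. The decarboxylase genes thus kept 83.3% (Pdha1) and 81.0% (Pdhb) of the fl/fl mean, while Dld kept 71.8%.

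Pyruvate dehydrogenase kinases switch the complex off by phosphorylation and the phosphatases Pdp1 and Pdp2 switch it on again. By fitted value Pdk1, Pdk2 and Pdk3 were lower and Pdp1 and Pdp2 were higher, and none of the 5 passed the edgeR test with all mice or the DESeq2 test. Pdk2, the most abundant of Pdk1, Pdk2 and Pdk3 by TPM, had 229 and 231 CPM in the fl/fl mice and 115, 123 and 183 CPM in the Ksp-Cre mice, and mouse 3 was the highest of the 3. Pdk1, a kinase known as a hypoxia target, had 53.3 and 55.8 CPM, against 41.3, 45.5 and 42.6 CPM. Pdk3 had 62.9 and 70.9 CPM, against 54.7, 58.1 and 39.6 CPM. The log2 differences of Pdk2, Pdk1 and Pdk3 were -0.71 (SE 0.216), -0.34 (SE 0.108) and -0.40 (SE 0.184), with edgeR adjusted p values of 0.162, 0.179 and 0.316. Without Ksp-Cre mouse 3 the difference of Pdk2 was -0.95 (edgeR adjusted p = 0.000896) and that of Pdk3 was -0.24 (edgeR adjusted p = 0.132). Pdp2 had 38.3 and 36.5 CPM, against 41.2, 39.9 and 45.2 CPM. Pdp1 had 12.8 and 12.4 CPM, against 19.1, 15.3 and 12.6 CPM, where mouse 3 lay between the fl/fl mice. The phosphatase differences were 0.17 (SE 0.117) for Pdp2 and 0.31 (SE 0.214) for Pdp1 on the log2 scale, and that of Pdp1 was 0.15 without Ksp-Cre mouse 1.

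The summed TPM of these 3 kinases over that of the 2 phosphatases was 10.6 and 11.3 in the fl/fl mice and 4.80, 5.67 and 7.46 in the Ksp-Cre mice. The groups did not overlap. With Pdk4, a fasting and fatty acid responsive kinase of the same family, added to the kinases the ratio was 11.2 and 12.3, against 5.85, 8.34 and 18.6, so mouse 3 moved above both fl/fl mice. Pdk4 itself had 19.2 and 32.7 CPM in the fl/fl mice and 41.9, 96.4 and 414 CPM in the Ksp-Cre mice. Its log2 difference of 2.83 had an SE of 1.01 and did not pass the test (edgeR adjusted p = 0.214). Without Ksp-Cre mouse 3 it was 1.42 (edgeR adjusted p = 0.0295). With 2 and 3 mice an exact permutation test of a ratio cannot go below a one-sided p of 0.1, so ratios are given as values.

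The 11 genes read here for mitochondrial enzymes of the cycle, which leave out succinate dehydrogenase and do not cover every step, were all lower. Their log2 differences were -0.77 to -0.31, with a median of -0.54. Among them 1 passed the edgeR test with all mice, 8 passed with DESeq2 and 10 with edgeR without Ksp-Cre mouse 3, and the groups overlapped for Fh1 alone. Isocitrate dehydrogenase, the NAD-linked and rate-controlling enzyme, is built from an alpha (Idh3a), a beta (Idh3b) and a gamma (Idh3g) subunit. Idh3b had 262 and 283 CPM in the fl/fl mice and 162, 163 and 154 CPM in the Ksp-Cre mice. It fell by 0.77 on the log2 scale (SE 0.114; edgeR adjusted p = 0.0491), close to the threshold. The call was lost with library size scaling (adjusted p = 0.0816), upper quartile scaling (0.0544), the length trend removed (0.0767) and limma (0.0727). It was also lost with length and GC trends removed (0.0699), with a block by mouse number (0.216), and with any mouse but Ksp-Cre mouse 3 left out. The log2 difference itself stayed between -0.83 and -0.61. Idh3g had 206 and 239 CPM, against 136, 129 and 135 CPM, and its difference was of like size but did not pass (-0.74, SE 0.121; edgeR adjusted p = 0.0541). Idh3a had 205 and 223 CPM, against 169, 146 and 125 CPM. The ratio of the catalytic Idh3a to Idh3b in TPM was 0.494 and 0.498 in the fl/fl mice and 0.663, 0.567 and 0.514 in the Ksp-Cre mice, above both, whereas the ratio of Idh3b to Idh3g overlapped between the groups. The files place Idh3b on chromosome 2 (minus strand, 130121229 to 130126371).

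Further round the cycle, Ogdh and Dlst encode the decarboxylase and the succinyltransferase of the alpha-ketoglutarate dehydrogenase complex. Ogdh had 649 and 554 CPM in the fl/fl mice and 433, 435 and 370 CPM in the Ksp-Cre mice. Dlst had 391 and 392 CPM, against 283, 296 and 289 CPM. Neither set overlapped, and the log2 differences were -0.54 (SE 0.150) and -0.44 (SE 0.117). Succinyl-CoA ligase shares its alpha subunit (Suclg1) between an ADP-specific (Sucla2) and a GDP-specific (Suclg2) beta subunit. Suclg1 had 262 and 296 CPM, against 161, 176 and 182 CPM. Suclg2 had 443 and 462 CPM, against 292, 293 and 298 CPM. Sucla2 had 172 and 162 CPM, against 124, 125 and 106 CPM. The log2 differences were -0.69, -0.62 and -0.49, with edgeR adjusted p values of 0.0646, 0.0672 and 0.120. The ratio of Suclg2 to Sucla2 in TPM overlapped between the genotypes, at 1.39 and 1.54 against 1.27, 1.26 and 1.51.

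The closing steps of the cycle differed in how the mice lay. Mdh2, the malate dehydrogenase of the matrix, had 465 and 520 CPM in the fl/fl mice and 331, 287 and 311 CPM in the Ksp-Cre mice (log2 difference -0.67, SE 0.135; edgeR adjusted p = 0.0758). Cs, the citrate synthase that admits acetyl-CoA to the cycle, had 399 and 395 CPM, against 344, 313 and 301 CPM. Its difference was the smallest of these 11 genes in the main edgeR fit (-0.31, SE 0.128). Fh1, the fumarase, had 178 and 223 CPM, against 130, 119 and 222 CPM. Mice 1 and 2 were below both fl/fl mice and mouse 3 was level with the higher of them. With all mice the difference was -0.35 (SE 0.290; edgeR adjusted p = 0.548), and without Ksp-Cre mouse 3 it was -0.68 (edgeR adjusted p = 0.00861). It was -0.24 without Ksp-Cre mouse 1 and -0.19 without Ksp-Cre mouse 2 or without fl/fl mouse 3. There it was smaller than that of Cs, as also with the length trend removed (-0.21 against -0.28).

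Among the cytosolic and NADP-linked counterparts, Mdh1 was the most abundant of the 35 genes by TPM, with a mean of 1444 TPM in the fl/fl mice and 864 TPM in the Ksp-Cre mice. It encodes the cytosolic malate dehydrogenase of the malate-aspartate shuttle. Its CPM values were 1201 and 1392 in the fl/fl mice and 720, 653 and 583 in the Ksp-Cre mice, 50.3% of the fl/fl mean. The difference of -0.99 (SE 0.161) did not pass the test (edgeR adjusted p = 0.0541). Of the 4 genes with this role, edgeR with all mice called 0, DESeq2 called Mdh1 and Idh2, and edgeR without Ksp-Cre mouse 3 called all 4. The ratio of Mdh1 to Mdh2 in TPM was 1.69 and 1.75, against 1.42, 1.49 and 1.23, so the cytosolic form was lower also relative to the matrix form. Idh2, the NADP-linked isocitrate dehydrogenase of the mitochondrion, had 367 and 389 CPM, against 258, 220 and 183 CPM. Idh1, the form of cytosol and peroxisome, had 892 and 906 CPM, against 667, 680 and 741 CPM. The log2 differences were -0.78 (SE 0.172) and -0.37 (SE 0.135), and the ratio of Idh1 to Idh2 in TPM was 5.54 and 5.31, against 5.88, 7.06 and 9.25. Idh2 shares 15.4% of its exon bases with LOC118567518. Aco1, a cytosolic aconitase that also acts as an iron regulatory protein, had 443 and 490 CPM, against 311, 368 and 415 CPM.

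Pcx showed the lowest fold change of the 35 genes. Pyruvate carboxylase makes oxaloacetate from pyruvate in the mitochondrion, which refills the cycle and is the entry step of gluconeogenesis. Pcx had 344 and 364 CPM in the fl/fl mice and 136, 130 and 153 CPM in the Ksp-Cre mice. All 3 were far below both, at 39.4% of the fl/fl mean. It fell by 1.34 on the log2 scale (SE 0.128; edgeR adjusted p = 0.0327), and 2.17% of all genes tested had a lower log2 fold change. Leaving out any mouse kept the log2 fold change between -1.41 and -1.29, and with a mouse left out its edgeR adjusted p was under 0.05 only when that was Ksp-Cre mouse 3. The genes for the 2 routes of pyruvate in the matrix differed unequally, as the ratio of Pcx to Pdha1 in TPM was 0.732 and 0.752 in the fl/fl mice and 0.365, 0.333 and 0.355 in the Ksp-Cre mice. The files place Pcx on chromosome 19 (plus strand, 4560500 to 4671780).

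The malic enzymes turn malate into pyruvate. Me1, the cytosolic NADPH-forming enzyme, had 436 and 466 CPM in the fl/fl mice and 279, 345 and 283 CPM in the Ksp-Cre mice. The mitochondrial Me3 had 50.6 and 53.4 CPM, against 45.9, 34.4 and 26.9 CPM. The mitochondrial Me2, the lowest of the 35 genes by TPM, had 19.3 and 15.5 CPM, against 19.2, 15.9 and 12.1 CPM. Me1 and Me3 did not overlap between the genotypes and Me2 did. The log2 differences were -0.58 (SE 0.149), -0.54 (SE 0.224) and -0.15 (SE 0.234), and none passed the edgeR test with all mice (adjusted p = 0.121, 0.268 and 0.772), while Me1 was called by DESeq2 and by edgeR without Ksp-Cre mouse 3. The direction of Me2 turned without fl/fl mouse 1, without Ksp-Cre mouse 3 and in TPM.

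Acly, the cytosolic enzyme that cleaves exported citrate to acetyl-CoA for lipid synthesis and histone acetylation, had the highest fold change of the 35. It had 163 and 159 CPM in the fl/fl mice and 179, 194 and 413 CPM in the Ksp-Cre mice. Mice 1 and 2 lay just above the fl/fl mice and mouse 3 far above them. The log2 difference was 0.70 (SE 0.381; edgeR adjusted p = 0.377) with all mice and 0.22 (edgeR adjusted p = 0.155) without mouse 3. The ratio of Acly to Cs in TPM was 0.155 and 0.153, against 0.198, 0.236 and 0.521.

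In the glutamate and aspartate branch Ksp-Cre mouse 3 lay above mice 1 and 2 for all 3 genes. Glud1, the matrix glutamate dehydrogenase that releases ammonia, had 921 and 1121 CPM in the fl/fl mice and 557, 551 and 1109 CPM in the Ksp-Cre mice. Got2, the mitochondrial aspartate aminotransferase of the malate-aspartate shuttle, had 321 and 328 CPM, against 231, 209 and 317 CPM. Got1, its cytosolic partner, had 153 and 157 CPM, against 131, 116 and 227 CPM. For all 3 genes mice 1 and 2 were below both fl/fl mice, while mouse 3 was within the fl/fl range for Glud1, just below it for Got2 and above it for Got1. The log2 differences were -0.47 (SE 0.341), -0.36 (SE 0.200) and 0.026 (SE 0.295) with all mice. Without mouse 3 they were -0.88, -0.56 and -0.32, with edgeR adjusted p values of 0.0032, 0.00947 and 0.0651. Without Ksp-Cre mouse 1 they were -0.30, -0.30 and 0.14, and without Ksp-Cre mouse 2 they were -0.29, -0.24 and 0.21. The ratio of Got1 to Got2 in TPM was 0.303 and 0.303 in the fl/fl mice and 0.360, 0.352 and 0.454 in the Ksp-Cre mice, so it was higher in each of the 3.

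**Figure D2:**
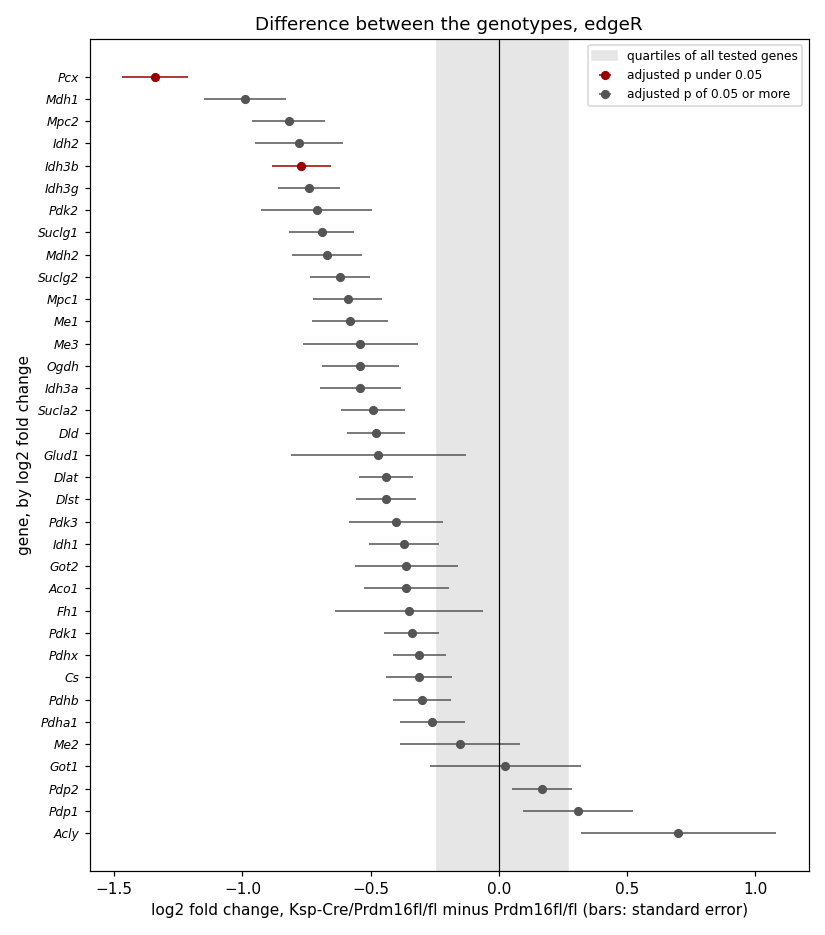
Log2 fold change of each of the 35 genes between the genotypes from edgeR (x axis), with bars of 1 standard error, genes ordered by value (y axis), and a grey band between the quartiles of the 16394 genes tested (-0.24 and 0.27). Pcx and Idh3b, in red, had an adjusted p under 0.05, and Acly, Pdp1, Pdp2 and Got1 lie right of 0.

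The genes did not all follow the same mouse. Within the Ksp-Cre group, mouse 3 was the highest of the 3 for 15 genes, mouse 1 for 13 and mouse 2 for 7, and mouse 3 was the lowest for 12. Fh1, Glud1, Got1, Got2, Pdk2 and Acly were high in mouse 3, whereas Mdh1, Idh2, Idh3a, Me3 and Pdk3 were among those lowest there. By place in the cell, 27 of the 29 mitochondrial genes were lower, with a median of -0.48, and 4 of the 6 cytosolic genes were lower, with a median of -0.36. Of the 32 genes that share under 10% of their exon bases with another gene, 28 were lower, with a median of -0.45. By TPM the fl/fl means ran from 4.49 for Me2, 6.28 for Pdp1 and 8.16 for Me3 to 807 for Idh1, 838 for Mdh2, 914 for Mpc2 and 1444 for Mdh1. Across the 35 genes the log2 fold change correlated with log2 of that level at a Spearman rho of -0.50 (Pearson r = -0.54). The correlation was 0.39 (r = 0.37) with log2 exon length and -0.11 (r = -0.22) with GC content. These are descriptions over 35 genes measured in the same 5 libraries.

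**Figure D3:**
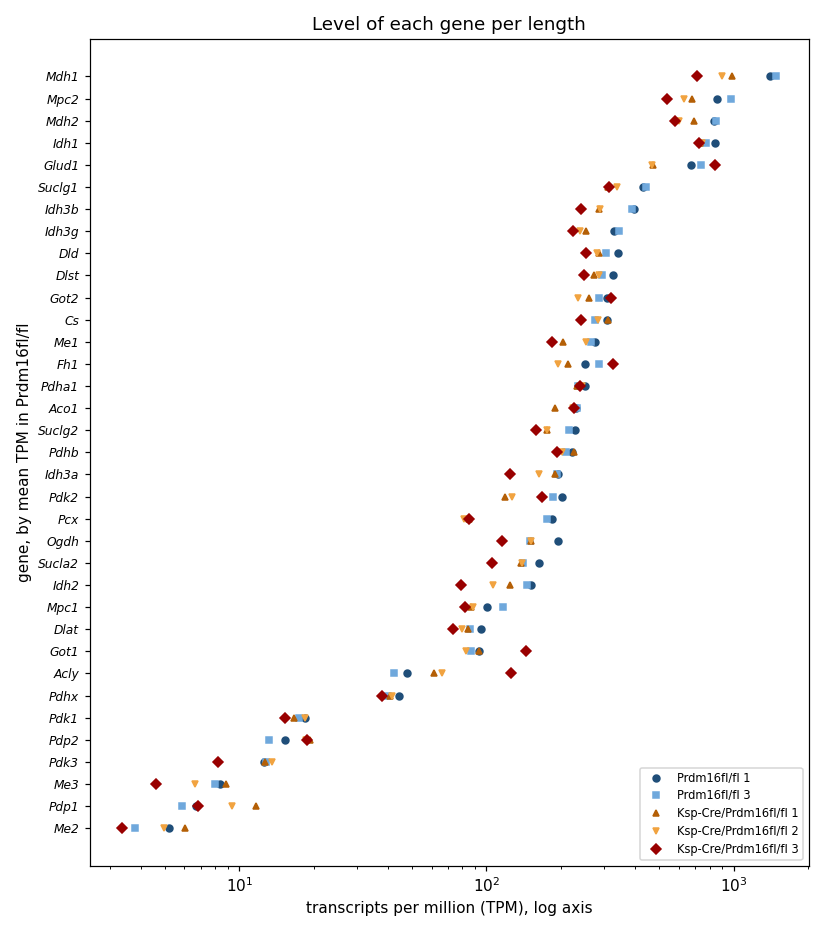
Level of each of the 35 genes in each mouse in TPM on a log axis (x axis), with genes ordered by the fl/fl mean (y axis) and 1 point per mouse. Levels span Me2, at 4.49 TPM in the fl/fl mice, to Mdh1, at 1444 TPM, and the Ksp-Cre points of most genes lie to the left.

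Succinate dehydrogenase, the cycle enzyme that is also part of the respiratory chain and is not among the 35 genes, was lower as well. Its subunit genes Sdha, Sdhb, Sdhc and Sdhd were all lower in every Ksp-Cre mouse, and 0 of 4 passed the edgeR test, with 4 at an unadjusted p under 0.05. Their summed level was 1592 and 1723 CPM in the fl/fl mice and 1147, 1065 and 973 CPM in the Ksp-Cre mice, with a median log2 difference of -0.62. Sdhb, the iron-sulfur subunit, had 304 and 384 CPM, against 188, 165 and 179 CPM (log2 difference -0.96, SE 0.148; edgeR adjusted p = 0.0505).

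A further 19 genes of pyruvate, lipoate, lactate and anion carrier metabolism had a median of -0.14, nearer to all genes tested, with 14 lower, 5 higher and 0 past the edgeR test. At an unadjusted p under 0.05, 3 were lower and 1 was higher, against 11.2% and 7.64% of all genes tested. Without Ksp-Cre mouse 3, edgeR called 6 lower and 1 higher, against 11.0% and 7.82% of all genes tested. The groups did not overlap for 4 of the 19 below and 1 above, against 21.3% and 20.3% of all genes tested. Ldha and Ldhb, the lactate dehydrogenase subunits, differed by 0.047 (SE 0.128) and -0.009 (SE 0.158). Pck1, the cytosolic carboxykinase of gluconeogenesis that follows Pcx, had 5424 and 7357 CPM in the fl/fl mice and 2184, 2754 and 5556 CPM in the Ksp-Cre mice. Mouse 3 lay between the fl/fl mice, unlike for Pcx, and the difference was -0.87 (SE 0.419; edgeR adjusted p = 0.328), or -1.37 without mouse 3 (edgeR adjusted p = 0.00249). Slc25a11, the oxoglutarate carrier of the malate-aspartate shuttle, had 176 and 196 CPM, against 122, 123 and 86.9 CPM (-0.75, SE 0.182; edgeR adjusted p = 0.112), or -0.60 without mouse 3 (edgeR adjusted p = 0.00571).

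Of 10 mitochondrial regulators, 7 were lower, 3 were higher and 0 passed the edgeR test (5 lower at an unadjusted p under 0.05), with a median of -0.44. Ppargc1a, which encodes the coactivator PGC-1alpha, had 72.6 and 71.8 CPM in the fl/fl mice and 51.4, 55.5 and 53.2 CPM in the Ksp-Cre mice (-0.44, SE 0.102; edgeR adjusted p = 0.102). Sirt3, a mitochondrial deacetylase rather than a regulator of gene expression, had the lowest fold change of the 10. It had 76.0 and 90.8 CPM, against 38.4, 40.9 and 50.1 CPM (-0.95, SE 0.156; edgeR adjusted p = 0.0541). Esrra, an orphan nuclear receptor that partners PGC-1alpha, had 124 and 123 CPM, against 104, 79.7 and 64.1 CPM (-0.58, SE 0.204; edgeR adjusted p = 0.209). Without Ksp-Cre mouse 3, edgeR called 4 of the 10 regulators lower, Sirt3 among them, and 4 of the 4 succinate dehydrogenase genes. Gabpa and Nrf1, further regulators of nuclear genes for mitochondria, were level or higher, at 59.2 and 58.1 against 58.4, 62.3 and 56.0 CPM and at 23.1 and 23.0 against 25.2, 27.5 and 25.8 CPM.

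Markers of the tubule segments were lower beside the cycle genes. All 14 proximal tubule markers were expressed in every mouse, which fits the labelled tissue. All 14 were lower in the Ksp-Cre mice by fitted value, with a median of -1.31. For 13 all 3 Ksp-Cre mice lay below both fl/fl mice, against 21.3% of all genes tested. Slc22a8, an organic anion transporter, and Miox, myo-inositol oxygenase, passed the test. The summed level of the 14 was 24031 and 30522 CPM in the fl/fl mice and 7928, 10063 and 12299 CPM in the Ksp-Cre mice. Kap, an androgen-regulated proximal tubule gene, alone gave 12507 and 18227 CPM of these sums, against 2996, 4121 and 7403 CPM. In TPM the sum was 56665 and 71729, against 17618, 23423 and 33320, mostly Kap. The median proximal tubule marker lay at -1.06, -1.05 and -1.77 in Ksp-Cre mice 1, 2 and 3, against -0.47, -0.47 and -0.48 for the 35 cycle genes. When Ksp-Cre mouse 3 was left out, edgeR called 12 of the 14 lower. Mouse 3 had the lowest median, with Slc7a13, an amino acid transporter of the late proximal tubule, at 3.13 CPM against 35.3 and 55.9 CPM in mice 1 and 2, but the highest Kap of the 3, at 7403 CPM against 2996 and 4121 CPM. Its median over the cycle genes lay as in the others. Their part in the result was not tested.

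Markers of the other segments were lower too by fitted value, with medians of -0.72 for 6 thick ascending limb genes, -0.72 for 4 distal convoluted tubule genes, -0.60 for 5 principal cell genes and -0.73 for 5 intercalated cell genes, and 0 of these passed the edgeR test. The median principal cell marker lay at -0.066, -0.86 and -1.09 in Ksp-Cre mice 1, 2 and 3. In these lists, in order, all 3 Ksp-Cre mice lay below both fl/fl mice for 5, 3, 1 and 5 genes. This was the case for 21.3% of all genes tested, so the principal cell list was near that share. At an unadjusted p under 0.05, 3, 1, 1 and 3 of them were lower, against 11.2% of all genes tested. With Ksp-Cre mouse 3 left out, edgeR called 3, 3, 0 and 3 of them lower, against 11.0% of all genes tested. Pvalb of the distal convoluted tubule, at 12.5 and 11.0 CPM in the fl/fl mice, was not detected at this depth in Ksp-Cre mouse 3. The 8 injury markers were all higher, with a median of 1.08. For 6 all 3 Ksp-Cre mice lay above both fl/fl mice, against 20.3% of all genes tested. Of the 8, 0 passed the edgeR test (6 at an unadjusted p under 0.05), whereas 8 were called higher without Ksp-Cre mouse 3. Their summed level was 14963 and 15522 CPM in the fl/fl mice and 32037, 32684 and 38001 CPM in the Ksp-Cre mice, mostly Spp1, which encodes osteopontin. In TPM it was 19761 and 18811, against 49965, 50891 and 54140. Havcr1, which encodes the injury protein KIM-1, had 283 and 273 CPM, against 683, 696 and 472 CPM. Their part in the lower cycle genes was not tested.

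Cells outside the tubule were measured as well. The 5 podocyte markers had a median of -0.64, and Nphs1, which encodes nephrin, passed the test (-0.85, SE 0.109; edgeR adjusted p = 0.0412). Medians were -0.14 for 6 endothelial markers, 0.26 for 7 macrophage markers, -0.23 for 6 tested lymphocyte markers, 0.44 for 7 fibroblast and myofibroblast markers and 0.40 for 5 proliferation markers, with 0 of these past the edgeR test. Mouse 3 had the lowest median of the Ksp-Cre mice for macrophage, lymphocyte, fibroblast and myofibroblast, and proliferation markers. It did not for podocyte and endothelial markers. Medians in Ksp-Cre mice 1, 2 and 3 were 0.47, 0.36 and -0.059 for macrophage markers and -0.32, 0.23 and -1.09 for lymphocyte markers. For fibroblast and myofibroblast markers they were 0.58, 0.54 and 0.37, and for proliferation markers 0.79, 0.37 and 0.004. At an unadjusted p under 0.05, 2 endothelial markers were lower, 4 fibroblast and 1 proliferation marker were higher, and 0 macrophage and lymphocyte markers differed. The 5 erythroid markers were low in the fl/fl mice, with a summed 6.67 and 10.8 CPM, and higher in the Ksp-Cre mice, with 151, 150 and 40.5 CPM, led by Hbb-bs. Of these 5, 0 passed the edgeR test and 5 had an unadjusted p under 0.05, and globin copies share reads. Without Ksp-Cre mouse 3, edgeR called 4 podocyte and 2 endothelial markers lower, and 4 macrophage, 4 fibroblast and myofibroblast, 4 proliferation and 5 erythroid markers higher. Their part in the result was not tested.

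**Figure D4:**
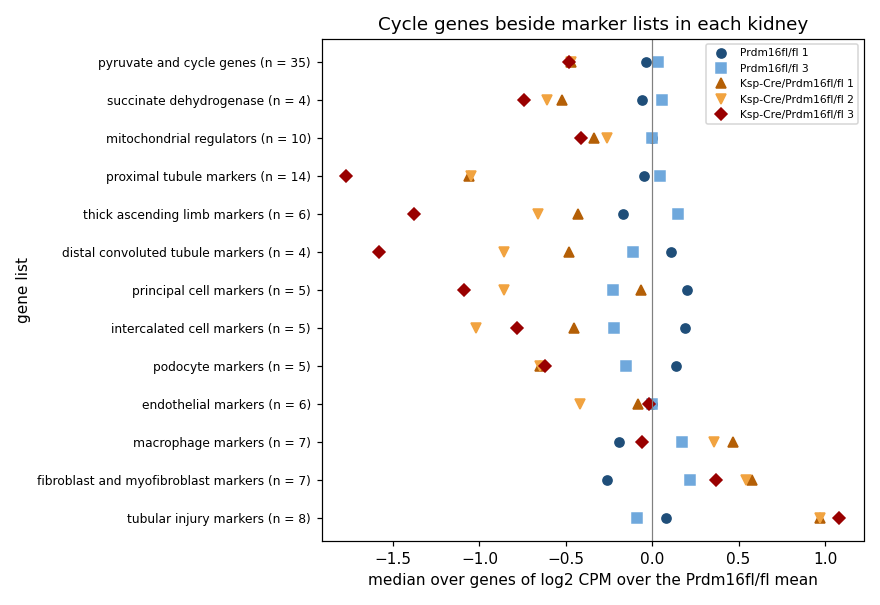
Median over the genes of each list of log2 CPM relative to the fl/fl mean (x axis), for the 35 cycle genes and 12 other lists (y axis), with 1 point per mouse. The cycle genes lie at -0.47, -0.47 and -0.48 in the 3 Ksp-Cre mice, proximal tubule markers lie lower, lowest in mouse 3, and injury markers lie at 0.97 to 1.08.

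Promoters are shown for Pcx and Idh3b, which passed the test, Mdh1, the most abundant, and Acly, the highest by fold change. RefSeq promoters on GRCm38.p6 were matched by symbol for 32 of the 35 genes, with 43 start sites, and not for Pdp1, Idh3a and Me2. The mouse build of the count files is not given in the sources used here, so these coordinates are not set beside those above. The 100 bases before each start are printed 5′ to 3′ on the strand of the gene, with CpG dinucleotides in capitals. They lie at chr19:4510372-4510471 (plus strand) and chr19:4594219-4594318 (plus strand) for Pcx, chr2:130284452-130284551 (minus strand) for Idh3b, chr11:21571935-21572034 (minus strand) for Mdh1 and chr11:100528001-100528100 (minus strand) for Acly.
Pcx start 1: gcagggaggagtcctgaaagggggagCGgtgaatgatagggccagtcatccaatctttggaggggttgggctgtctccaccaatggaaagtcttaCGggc
Pcx start 2: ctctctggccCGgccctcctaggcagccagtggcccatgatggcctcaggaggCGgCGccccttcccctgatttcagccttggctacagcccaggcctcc
Idh3b: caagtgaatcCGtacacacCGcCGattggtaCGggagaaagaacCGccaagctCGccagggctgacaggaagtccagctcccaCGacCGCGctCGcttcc
Mdh1: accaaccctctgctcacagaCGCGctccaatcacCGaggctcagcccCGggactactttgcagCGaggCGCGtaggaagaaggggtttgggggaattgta
Acly: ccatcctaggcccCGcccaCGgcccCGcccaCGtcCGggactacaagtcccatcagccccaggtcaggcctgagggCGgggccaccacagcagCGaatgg

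The cycle genes mostly have CpG-rich promoters. Over the 250 bases before each start, GC content had a median of 61.6% against 52.4% over all 32851 promoters, and the CpG count a median of 17 against 6. At least 10 CpG were present in 37 of the 43 starts (86.0%), against 37.8% of all promoters. Pcx is mixed, with 16 CpG before start 1 and 4 before start 2. Mdh1 had 17 and Acly 14, so promoters of this kind stand before genes that were lower and the gene with the highest fold change alike.

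Motifs of regulators known for mitochondrial genes were searched on both strands of the same 250 bases. The estrogen-related receptor element, TNAAGGTCA, was found before 0 of the 43 starts, against 1.14% of all promoters. The ETS site, CCGGAAGT, was found before 0, against 2.88%. The NRF1 site (GCGC, any base, then TGCGC) was found before 1 start, of Sucla2, against 3.74%, and the YY1 site, AANATGGCG, before 1, of Idh3g, against 1.12%. The cyclic AMP response element, TGACGTCA, was found before 4 starts, which belong to Mdh2 and to Ogdh, against 1.55%, and the 3 Ogdh starts share the same match. The matches are shown in capitals within up to 12 bases on either side, on the strand of the gene, at chr5:135778510-135778541 for Mdh2, chr11:6291534-6291565 for Ogdh, chr14:73552757-73552785 for Sucla2 and chrX:73787007-73787039 (minus strand) for Idh3g.
Mdh2: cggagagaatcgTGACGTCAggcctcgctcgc
Ogdh: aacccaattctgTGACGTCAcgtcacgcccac
Sucla2: aactgcgtctctGCGCCTGCGCggtgccc
Idh3g: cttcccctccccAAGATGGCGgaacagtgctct
A match in letters is not evidence of binding, and these 4 genes had log2 differences of -0.67 (Mdh2), -0.54 (Ogdh), -0.49 (Sucla2) and -0.74 (Idh3g), within the range of the genes without a match.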

How the data were processed

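Cortex RNA of 5 mice was analysed, with 1 library per mouse, grouped by genotype as labelled. Per the labels, the submitters' processing notes name CASAVA, featureCounts 2.0.1, DESeq2 1.16.1 and the build hg38, which is human, whereas the files list mouse genes. The aligner, the mouse build and the use of strand in counting are not given in the sources used here, so reads of overlapping genes and of near-identical copies may be misassigned. The authors removed adapter and low-quality reads and deposited raw counts per gene, with TPM and FPKM made from them. Recomputed TPM and FPKM differed from the deposited values by at most 4.65e-06. Of the 35478 genes listed, 9845 had 0 counts throughout, and broken lines of 5 genes were rejoined. The study's methods name littermates as controls, without saying which mice share a litter, so p-values measure the spread between these mice.

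Counts were filtered with filterByExpr (16394 genes kept), scaled with TMM and tested between genotypes with the quasi-likelihood test of edgeR 4.0.16 (R 4.3.3), without covariates, with Benjamini-Hochberg adjustment over all genes tested. A gene was called at an adjusted p under 0.05. DESeq2 1.42.0, limma 3.58.1 on log2(FPKM + 1), other filters and scalings, omission of single mice, a block by mouse number and removal of a gene length trend were alternatives. Removal of length and GC trends together (loess, 15223 genes with a GC value), the further lists without Ksp-Cre mouse 3 and overlap in TPM were added after the values were seen. The fits were tested on simulated data. Genes, roles and lists were chosen with earlier results of these data known. The rule for named genes took all 35, with per-mouse values for those that passed the test, had extreme fold changes, overlapped between genotypes or belong to an enzyme with several genes, and per-mouse values of the rest were added. Pdk4, Pck1, Ldha, Ldhb and other genes named from the further lists were chosen after their values were seen. A further gene of the pathway is not reported here. Promoters came from RefSeq (GRCm38.p6). Tables and figures used Python 3.11.15, pandas 2.3.3, numpy 2.4.6 and matplotlib 3.10.9.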

Additional observations from a re-analysis of the deposited data

How the results depend on the processing

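The median of the cycle genes was below 0 under all settings, at -0.47 to -0.34, and -0.24 in TPM, where that of all genes was 0.28. With both fl/fl mice kept, 26 to 31 genes had every Ksp-Cre mouse below both in the CPM or FPKM settings and 19 in TPM, and with 1 fl/fl mouse left, 29 and 30 had every Ksp-Cre mouse below it. The median was -0.37 with library size scaling and -0.34 with limma on log2(FPKM + 1), where the median of all genes moved to 0.15 and 0.11. Relative to all genes it was -0.51 to -0.45 in the fits. The number of cycle genes called lower, 2 in edgeR, was 16 with DESeq2, 5 without a filter beyond 1 count, 2 with at least 10 counts in every library, and 1 each with library size scaling, upper quartile scaling, the length trend removed, limma, and length and GC trends removed. It ranged from 0 to 24 when a mouse was left out, with 24 without Ksp-Cre mouse 3 and 0 without any other. None was called higher under any setting. Pcx was called in each setting that called any, and Idh3b was also lost under the settings that left 1. Over all genes, 143 were called lower. That number was 872 with DESeq2, 408 without the filter, 37 with library size scaling, 38 with the length trend removed, 51 with limma, 40 with both trends removed, and 0 to 1787 when a mouse was left out. Called higher were 17 genes, against 311 with DESeq2, 63 without the filter, 7 with the length trend removed, 7 with both trends removed, and 0 to 1266 when a mouse was left out. With a mouse other than Ksp-Cre mouse 3 left out, 1330 to 2514 genes still had an unadjusted p under 0.05, against 3090 with all mice. Me2 turned to 0.018 without fl/fl mouse 1 and to 0.013 without Ksp-Cre mouse 3, and Got1 ranged from -0.32 (without Ksp-Cre mouse 3) to 0.21 when a mouse was left out and was -0.001 with length and GC trends removed. Leaving out a fl/fl mouse left 1, which is then assumed to vary like the other group. Removing the length trend took Fh1 from -0.35 to -0.21 and Pdhb from -0.30 to -0.16, and library size scaling took Cs, Pdha1, Pdhb and Pdhx to -0.20, -0.15, -0.19 and -0.20. The cause of these shifts was not tested.

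With the mouse number as a replicate block, 0 cycle genes and 0 of all genes were called in either direction, and 2061 genes had an unadjusted p under 0.05. The deviations of mice with the same number were close to uncorrelated (correlation 0.00102 for mice 1 and -0.022 for mice 3). As the fl/fl group holds only mice 1 and 3, their deviations from the group mean mirror each other. The correlations therefore cannot show whether mice with the same number share more than the number, such as a litter.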
